A study of Mus musculus with 4 samples.

Results

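The stretch described here is the domain of mouse chromosome 15 that carries a LacO and a TetO operator array, chr15:11180801-12051200 (mm9, counted from 1). It is bounded by coordinates, as the topologically associating domain (TAD) around the arrays with about 150 kb on each side. All pairs of 6.4 kb bins with both bins inside it were taken, which gave 9316 bin pairs of the 104196 in the captured region (chr15:10278401-13196800), or 136 of its 456 bins. Of these pairs, 8911 were at least 3 bins apart and entered the comparisons, and 405 lay closer to the diagonal and were left out.

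Contacts were measured by tiled Capture-C, in which crosslinked chromatin is digested and ligated again, and oligonucleotides tiled over chosen regions pull out their ligation products. The question was how cassettes of CTCF sites in convergent orientation beside the arrays alter contacts in the whole domain. Untreated cells of the line 1B1, with 3xCTCF beside LacO and beside TetO, were set against the line 1A2 and against the line 1F4, which both lack 3xCTCF, and each of these lines was kept separate. A map of 1B1 after 2 h in 500 nM dTAG-13, which degrades cohesin, is given beside the results and took no part in choosing them.

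All libraries came from E14 mouse embryonic stem cells, a pluripotent line, with LacO and TetO arrays, a RAD21-HaloTag-FKBP fusion at the endogenous gene, tagged Tet and Lac repressors, and an earlier deletion of CTCF sites inside the TAD. 1A2 was derived from 1B1 by removing the 3xCTCF cassettes, and neither of them keeps the resistance genes beside the arrays. 1F4 still carries resistance genes with active Pgk1 promoters there, so that 1F4 and 1A2 differ by promoters as well as by clone. Each line was 1 clone, and the arrays were heterozygous, so every map mixes the allele with arrays and the allele without. As every group was 1 library, no difference here has a replicate check. The spread of the same ratio elsewhere in the region and the ratio of 1F4 over 1A2 are given beside most of the main results.

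CTCF is a zinc-finger protein that binds an asymmetric DNA motif, and cohesin is a ring complex, with RAD21 as its closing subunit, that is thought to draw out chromatin loops until it meets CTCF bound in the facing orientation. Convergent CTCF sites are therefore often joined by a focal contact, and many TAD boundaries are formed by clusters of them. Many of these structures weaken when RAD21 is lost.

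The positions on which the comparisons turn are shown first. The following stretches of mm9, both on the plus strand, are the integration sites of LacO (chr15:11496862-11496941) and TetO (chr15:11647326-11647405), with the target of the guide used for the integration in capitals. They are the genome before editing. Neither lies in an annotated gene, and the cut sites were 150.464 kb apart.
LacO site: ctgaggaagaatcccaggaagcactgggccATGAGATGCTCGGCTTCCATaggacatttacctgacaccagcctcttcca
TetO site: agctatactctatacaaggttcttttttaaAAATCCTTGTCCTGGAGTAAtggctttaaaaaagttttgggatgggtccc

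A search of mm9 on both strands for the core of the CTCF motif, which is CCA, any 2 bases, AGG, any base and GGC, found 7 matches in 7 of the 136 bins of the domain (5.15% of bins) and 29 in 27 of the 456 bins of the region (5.92%). Each boundary bin of the TAD held 1 match and neither array bin held any. Both boundary matches were on the minus strand, at chr15:11337309-11337320 and chr15:11896316-11896327. The other matches on the minus strand began at 11250393, 11868052 and 11948066, and those on the plus strand at 11968198 and 12038132. They are printed 5′ to 3′ on their own strand, with the match in capitals and 4 bases on each side. A match describes the letters of the reference and not binding, and the edited lines may differ from it.
upstream boundary match: gtaaCCACTAGGTGGCgacc
downstream boundary match: tttgCCAGAAGGTGGCagca
match at 11250393: cccaCCAGGAGGTGGCagca
match at 11868052: tcctCCAGGAGGAGGCattg
match at 11948066: ataaCCAATAGGAGGCttag
match at 11968198: ggagCCAGCAGGGGGCggag
match at 12038132: cgagCCACTAGGAGGCacac

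The boundary bins were chr15:11334401-11340800 upstream and chr15:11891201-11897600 downstream, 556.8 kb apart. They were taken as the deepest insulation minima of the mean of 1A2 and 1F4 near the ends of the TAD, so the values of these lines took part in choosing them. LacO (bin chr15:11494401-11500800) lay 160 kb inside the upstream boundary and TetO (bin chr15:11641601-11648000) lay 249.6 kb inside the downstream boundary. Protein-coding genes with a start site in the domain were Tars, a threonyl-tRNA synthetase gene (start 11329413), Npr3, which encodes a natriuretic peptide receptor (11835429), Sub1, which encodes a transcriptional coactivator (11926738), and Zfr, which encodes a zinc-finger RNA-binding protein (12047586). The end of Adamts12, a metalloproteinase gene, and the small RNA gene SNORA17 lay in the upstream flank, and a 7SK copy lay in the downstream boundary bin.

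At least 3 bins apart, the domain held 132597 read pairs in 1B1 and 114412 in treated 1B1, against 129966 in 1A2 and 161102 in 1F4. The median per bin pair was 9 reads in 1B1 and 6 after treatment, against 9 in 1A2 and 11 in 1F4, and between 2.76% and 6.41% of pairs held none. Errors below are counting errors of these reads, which carry no molecular identifiers. Contact values are observed/expected, the balanced signal divided by the mean at the same separation in the region, so that 1 is the regional mean. On this scale the mean over the domain was 1.15 in both lines without 3xCTCF, 1.08 in 1B1 and 0.989 in treated 1B1.

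At the level of large blocks, the 3xCTCF line had fewer contacts across the middle of the TAD than both lines. The domain was cut into 7 segments, namely the flanks, the stretch from the upstream boundary to LacO, LacO and TetO with 1 bin on each side, the stretch between the arrays, and the stretch from TetO to the downstream boundary. Of the 26 blocks of segment pairs, 3 were higher and 5 lower in 1B1 than in both lines by over 2 counting errors, and 18 were neither. Blocks of the same shapes moved to other positions in the region passed the same rule in 6.56% of 5378 positions for higher and 3.77% for lower, and these positions overlap each other. The balance of directions was set by the scaling, since with the expected value taken from the domain itself 5 blocks were higher and 3 lower. Over the alternatives as a whole 1 to 5 blocks were higher and 3 to 6 lower.

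The block with the most contact in the TAD joined the stretch upstream of LacO to the stretch downstream of TetO, across both arrays. Over 912 bin pairs, 1B1 had 2.09 ± 0.02, below 2.39 ± 0.02 in 1A2 and 2.42 ± 0.02 in 1F4, and treated 1B1 had 1.497 ± 0.02. The log2 ratio was -0.20 ± 0.02 against 1A2 and -0.21 ± 0.02 against 1F4, while 1F4 over 1A2 was 0.02. At 145 positions outside the domain the ratio had an SD of 0.06 to 1A2 and 0.11 to 1F4, and the lowest values were -0.093 and -0.090. The 1B1 value was below both lines, which stood together. The size depended on the expected value, and with the expected value from the domain the ratios were -0.072 and -0.10.

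Contacts of the stretch between the arrays with the stretch downstream of TetO, which contains Npr3, were 1.15 ± 0.02 in 1B1, below 1.32 ± 0.02 in 1A2 and 1.42 ± 0.02 in 1F4, and 1.06 ± 0.02 after treatment. This block crosses TetO only. The log2 ratio was -0.20 ± 0.03 against 1A2 and -0.30 ± 0.03 against 1F4, against an SD of 0.05 and 0.06 over 199 positions outside and a lowest value there of -0.11 against each line. Of the blocks that passed it had the lowest ratio to 1F4, and 1F4 was itself 0.10 above 1A2.

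The mirror block, between the arrays with the stretch upstream of LacO, showed no such difference from both lines. Its levels were 1.12 in 1A2, 1.06 in 1F4 and 1.05 in 1B1, with log2 ratios of -0.09 ± 0.03 and -0.01 ± 0.03. The difference in 1B1 thus lay on the TetO side in both comparisons and on the LacO side in only the comparison with 1A2. Whether the sides differ from each other was not tested.

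Within the stretch between the arrays, contacts stood in the order 1A2, 1F4, 1B1, at 0.979 ± 0.02, 1.06 ± 0.02 and 1.13 ± 0.02, and treated 1B1 had 1.03 ± 0.02. The log2 ratio was 0.21 ± 0.04 against 1A2 and 0.09 ± 0.04 against 1F4. The former exceeded all 281 positions outside the domain, where the highest was 0.08, and the latter did not exceed the highest there, 0.12. Against 1F4 the ratio was under 2 counting errors with array segments of 1 bin (0.05 ± 0.03) and with pairs from 6 bins apart (0.09 ± 0.05). As 1F4 was 0.12 above 1A2, a part as large as the difference from 1F4 separated the lines without 3xCTCF.

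The remaining blocks that passed were smaller or less precise. Contacts of the upstream flank with the stretch from the upstream boundary to LacO, which cross the upstream boundary, were 0.551 in 1B1, above 0.507 in 1A2 and 0.520 in 1F4, and 0.886 after treatment. Their ratios of 0.12 and 0.08 stayed within the range outside, which reached 0.15 against each line. Contacts of the upstream flank with TetO were 0.820 ± 0.05 in 1B1, 0.674 ± 0.04 in 1A2, 0.573 ± 0.04 in 1F4 and 1.102 ± 0.07 after treatment. Their ratios of 0.28 ± 0.12 and 0.52 ± 0.12 stayed within the range outside, which reached 0.65 and 0.66. With array segments of 1 bin these ratios were 0.32 ± 0.19 and 0.57 ± 0.19, the former under 2 counting errors. LacO with the stretch upstream of it had 0.836 in 1B1, 0.959 in 1A2, 0.930 in 1F4 and 1.004 after treatment. Its ratios were -0.20 ± 0.06 and -0.15 ± 0.06, where the lowest outside were -0.15 and -0.19. With array segments of 1 bin they were -0.13 ± 0.11 and -0.06 ± 0.10, both under 2 counting errors.

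Contacts between the flanks, which span the whole TAD, were 1.06 in 1B1, below 1.18 in 1A2 and 1.24 in 1F4, and 0.752 after treatment, with ratios of -0.15 and -0.22. With the expected value from the domain they were -0.03 ± 0.06 and -0.03 ± 0.06, so that this block no longer passed. Contacts of the upstream flank with the stretch from TetO to the downstream boundary were 1.195 in 1B1, 1.27 in 1A2, 1.26 in 1F4 and 1.252 after treatment, with ratios of -0.09 and -0.08. The direction of this last block depended on the scaling, because with the expected value from the domain both ratios were 0.10, that is, higher in 1B1. No direction is read from these blocks.

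**Figure D1:**
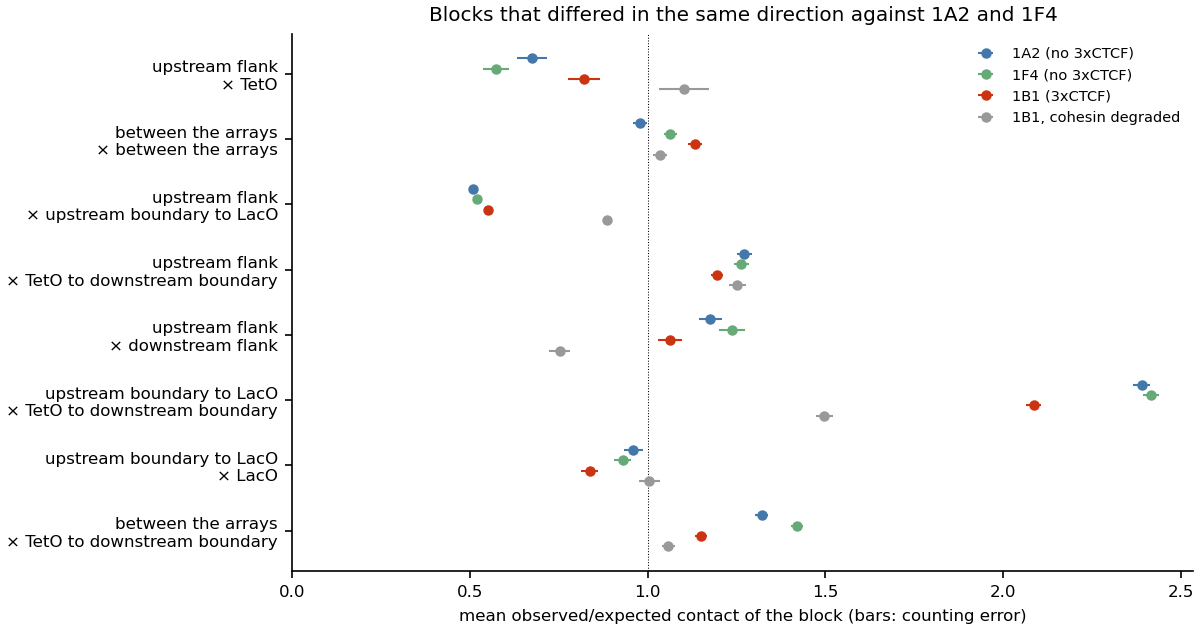
Mean observed/expected contact (x axis, 1 is the regional mean) of the 8 blocks that differed in the same direction from 1A2 and from 1F4, with points for each untreated line and for cohesin-degraded 1B1 and bars of 1 counting error. The largest gap in level is in the block across both arrays, at 2.39 and 2.42 in the lines without 3xCTCF and 2.09 in 1B1.

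Windows of 3 by 3 bins gave a finer view of all pairs. Of 8385 windows in the domain, 8383 held at least 30 reads over the 3 untreated libraries. In 1B1, 128 windows (1.53%) were at least 1.5-fold higher than in both lines and 180 (2.15%) were at least 1.5-fold lower. Outside the domain, 2.68% of 39387 windows were higher and 1.92% lower. These shares pool all separations, and windows outside lie further apart and hold fewer reads, with a median of 142 against 281, so nothing is read from them before they are split by separation.

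Asking also for over 2 counting errors against both lines left 51 higher (0.608%) and 85 lower (1.01%) in the domain, against 0.452% and 0.292% outside. As windows in the domain hold more reads, with a median counting error of 0.25 against 1A2 where it is 0.33 outside, they pass this rule more easily and the shares are not compared. The split between directions was set by the scaling. With the expected value taken from the domain, 215 windows were higher and 92 lower.

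Against 1A2 alone 4.03% of the windows of the domain were 1.5-fold higher in 1B1 and 4.45% lower, and against 1F4 alone 5.39% and 5.70%. Between the lines without 3xCTCF, 2.47% were higher in 1F4 than in 1A2 and 4.41% lower. Outside the domain 8.09% were higher and 5.19% lower against 1A2, 8.495% and 4.51% against 1F4, and 5.80% and 7.15% between the lines without 3xCTCF. Only the share lower than 1F4 was larger in the domain than outside. The medians over windows were -0.04 and -0.02 in the domain and 0.03 and 0.05 outside.

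Split by separation, lost windows made up a larger share in the domain than outside in every band, and most of them lay at long range in both. Between 505.6 and 851.2 kb, 101 of 1538 windows in the domain (6.57%) were lost and 31 (2.02%) gained, against 3.498% and 4.05% outside. Gained windows were more frequent than outside in the middle bands, with 21 of 1768 (1.19%) between 102.4 and 198.4 kb, where 0.238% were gained outside, and 27 of 1512 (1.79%) between 204.8 and 300.8 kb, against 1.03%. They were less frequent at 32 to 96 kb, with 1 of 1364 (0.0733%) against 0.173%, and at 307.2 to 499.2 kb, with 48 of 2201 (2.18%) against 3.43%. Between 102.4 and 198.4 kb 13 windows (0.735%) were lost, against 0.0992% outside. The lost share was 1.52% against 0.755% from 204.8 to 300.8 kb, 1.86% against 1.4996% from 307.2 to 499.2 kb, and 0.147% against 0.0577% from 32 to 96 kb, which was 2 windows in each. Both directions were thus more frequent in the domain at the separation of the arrays. Neighbouring windows share bin pairs, so these counts are not of separate measurements. The split by separation used the expected value of the region. With that of the domain 215 windows were gained and 92 lost in all, against 128 and 180, and the split was not repeated with it. Thinly covered bins, described below, lay in 56 of the 128 and 96 of the 180, and the split was not repeated without them.

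Windows of high contact stood lowest in 1B1 relative to both lines. Among windows at least 16 bins apart with a mean observed/expected of 2 or more over the 3 untreated libraries, the median log2 ratio was -0.24 against 1A2 and -0.29 against 1F4 over 823 windows in the domain. Over 2358 such windows outside it was -0.05 and -0.10. The ratio of 1F4 over 1A2 was 0.06 in the domain and 0.05 outside. From 1.5 to 2 the medians were -0.13 and -0.14 in the domain and 0.00 and -0.01 outside. Around the regional mean, from 1 to 1.5, they were -0.09 and -0.06 over 2021 windows in the domain and 0.01 and 0.02 outside. Below 1 the medians were above 0 in the domain and outside, at 0.09 and 0.15 against 0.11 and 0.18 below 0.5. With the expected value of the region, the ratio thus fell with the level of contact, further in the domain than outside. On that scale the mean of the whole domain was 1.08 in 1B1 and 1.15 in both lines without 3xCTCF. The levels were not repeated with the expected value from the domain.

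Some blocks held windows of 1 direction only. These windows were chosen by their values in 1B1, 1A2 and 1F4, so their places are a description. TetO with the stretch from the upstream boundary to LacO held 9 gained windows of 72 (12.5%), TetO with the upstream flank 8 of 69 (11.6%), and neither held a lost one. TetO with the downstream flank held 2 gained of 69 (2.90%). LacO held 3 of 69 (4.35%) with the upstream flank and 2 of 69 (2.90%) with the downstream flank, again with none lost. Over all windows of the domain 1.53% were gained and 2.15% lost, and outside it 2.68% and 1.92%. As gained shares outside ran up to 4.05% by separation, nothing is read from blocks with only 2 or 3 gained windows. The stretch between the arrays with the stretch from TetO to the downstream boundary held 36 lost windows of 759 (4.74%), of which 30 passed 2 counting errors, and no gained one.

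Other lost windows joined distant ends. The flanks with each other had 40 lost (7.59%) and 16 gained of 527. The stretch from the upstream boundary to LacO with the downstream flank had 31 lost (5.62%) and 20 gained of 552. The upstream flank with the stretch from TetO to the downstream boundary had 25 lost (2.86%) and 8 gained of 874. Over all windows of the domain 6.57% were lost between 505.6 and 851.2 kb and 1.86% between 307.2 and 499.2 kb, so none is read as set apart. Both directions occurred in these blocks, where windows hold few reads. No window was gained or lost within the upstream flank, within the stretch from the upstream boundary to LacO, between the arrays, from TetO to the downstream boundary, or within the downstream flank. Windows within 1 segment join bins that are close together. At 32 to 96 kb only 0.0733% of windows in the whole domain were gained and 0.147% lost, so nothing is read from this absence.

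**Figure D2:**
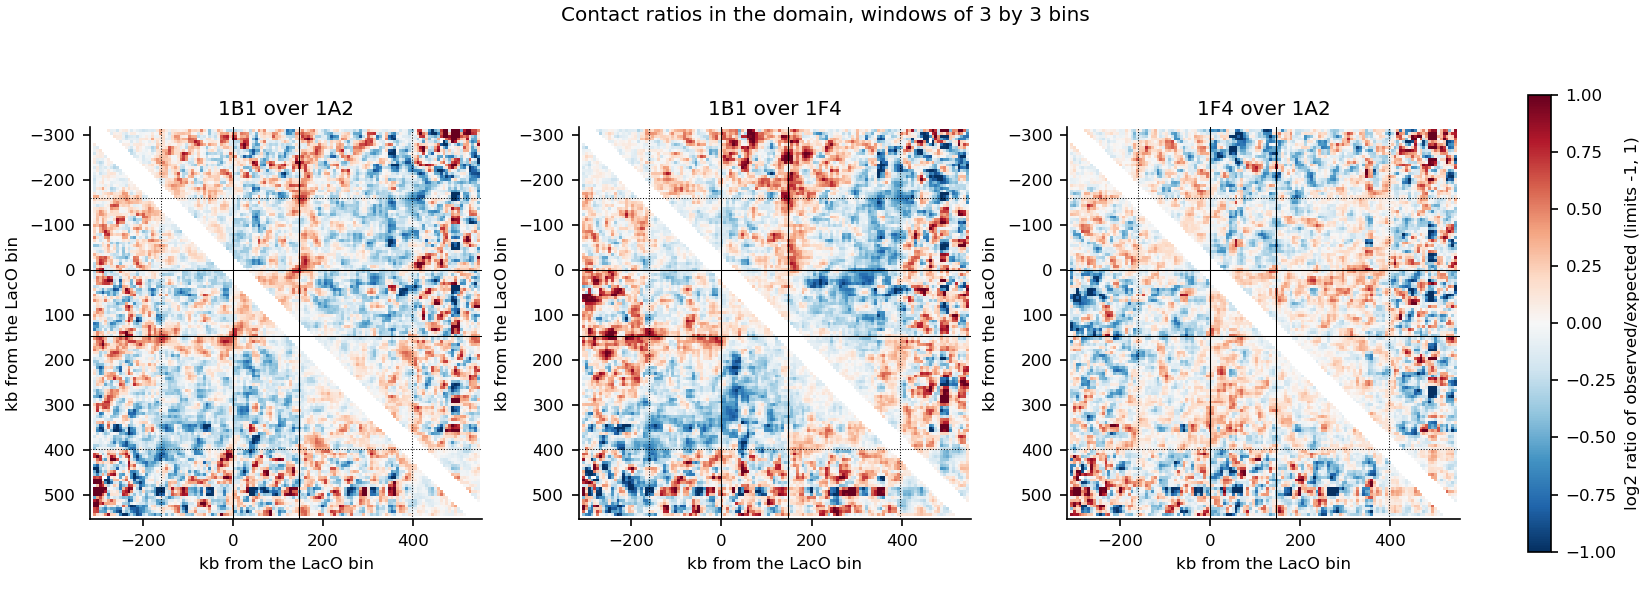
Log2 ratio of observed/expected in windows of 3 by 3 bins across the domain for 1B1 over 1A2, 1B1 over 1F4 and 1F4 over 1A2, with both axes in kb from the LacO bin, solid lines at LacO (0) and TetO (147.2 kb), dotted lines at the boundaries, and colours limited to -1 and 1. Red runs along the TetO line upstream of LacO and blue fills the block between the arrays and downstream of TetO in both maps of 1B1, and the speckle past the downstream boundary lies in the downstream flank.

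Thinly covered bins carried a large share of these calls. In 5 bins of the domain the reads of at least 1 library were below the median of the bins of the captured region divided by 3. The thinnest, chr15:11987201-11993600, had between 299 and 364 reads per library where the medians over bins of the domain were 4564.5 to 5817.5. Of the 1685 windows with such a bin, 56 were gained (3.32%) and 96 lost (5.70%). Of the 6698 windows without one, 72 were gained (1.07%) and 84 lost (1.254%).

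The 6 most gained and 6 most lost windows, ranked by the smaller of the log2 ratios, rested on these bins. Of the 6 gained ones 5 contained a thin bin, and of the 6 lost ones all did. Only 2 of the gained and 4 of the lost exceeded 2 counting errors against both lines. The most gained, chr15:11782401-11788800 with chr15:11993601-12000000, had 1.26 ± 0.32 in 1B1, 0.445 ± 0.09 in 1A2 and 0.484 ± 0.05 in 1F4. The ranking was therefore repeated without thin bins, where all 12 named windows exceeded 2 counting errors.

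In that ranking a gained window lay next to the array pair. It joined chr15:11481601-11488000, just upstream of LacO, with chr15:11654401-11660800, just downstream of TetO. It had 1.79 ± 0.12 in 1B1 (291 reads), against 1.02 ± 0.09 in 1A2 (155 reads) and 1.07 ± 0.09 in 1F4 (199 reads), and 1.18 ± 0.11 after treatment (141 reads). The log2 ratios were 0.81 ± 0.16 and 0.74 ± 0.15, and 1F4 over 1A2 was 0.07 ± 0.17. The lines without 3xCTCF lay together near the regional mean. Windows at this separation outside the domain had an SD of 0.25 and 0.23 and reached 1.05 and 0.85, so that the ratios were over 3 SD and within that range. Named windows were ranked by these ratios, so the SD describes them and tests nothing. This was the best covered of the 6 gained windows, since the others held 101 to 144 reads over the untreated libraries.

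Of the lost windows in that ranking the best covered joined the upstream boundary bin with chr15:11916801-11923200 inside Sub1, just beyond the downstream boundary. It had 1.82 ± 0.17 in 1B1 (115 reads), against 3.35 ± 0.25 in 1A2 (187 reads) and 3.53 ± 0.24 in 1F4 (221 reads), and 2.06 ± 0.23 after treatment (80 reads). The log2 ratios were -0.88 ± 0.17 and -0.96 ± 0.17, under 2 SD of windows at this separation outside the domain, which was 0.53 and 0.51. Other lost windows started from chr15:11526401-11532800, between the arrays. With chr15:11699201-11705600, downstream of TetO, the level was 1.06, 1.16 and 0.627 in 1A2, 1F4 and 1B1, and with chr15:11808001-11814400, inside Npr3, it was 1.62, 1.696 and 0.931. All 3 windows stood lower in 1B1 by 0.76 or more on the log2 scale.

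At the threshold itself the values ran on without a gap. The last gained window had a smaller log2 ratio of 0.587 and the first outside had 0.584, and on the lost side these were -0.588 and -0.582.

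The array pair itself differed in size between the comparisons. Its window had 1.85 ± 0.132 in 1B1 (236 reads), against 1.05 ± 0.104 in 1A2 (119 reads) and 1.51 ± 0.113 in 1F4 (212 reads), and 1.57 ± 0.148 after treatment (134 reads). The log2 ratio of 0.81 ± 0.18 against 1A2 was near the top of 315 windows at that separation outside the domain, which ran from -0.75 to 0.89 with an SD of 0.24. The ratio of 0.29 ± 0.15 against 1F4 was close to the SD of 0.24 there. As 1F4 stood 0.52 ± 0.18 above 1A2, the pair exceeded 2 counting errors against 1A2 and not against 1F4. Other settings crossed that line, with ratios to 1F4 of 0.30 ± 0.09 in windows of 5 by 5 bins and 0.37 ± 0.14 in recovered reads without balancing.

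The surroundings of the pair differed more evenly. Square rings of bins around it had 1.23 ± 0.07 in 1A2, 1.28 ± 0.07 in 1F4 and 1.58 ± 0.08 in 1B1 at a distance of 2 bins (12.8 kb), with log2 ratios of 0.36 ± 0.11 and 0.30 ± 0.11 and only 0.06 between 1F4 and 1A2. At 3 bins they had 1.22, 1.13 and 1.48, with ratios of 0.28 ± 0.10 and 0.40 ± 0.10. At 4 bins the ratios were 0.29 ± 0.09 and 0.12 ± 0.08, and at 5 bins 0.11 and 0.12. From 6 to 8 bins they lay between -0.03 and 0.13. In the ring at 1 bin the ratios were 0.71 ± 0.18 and 0.30 ± 0.16, the latter under 2 counting errors. The ratios to both lines thus exceeded 2 counting errors only at 2 and 3 bins. In recovered reads without balancing they also did so at 1 and 5 bins. The difference between 1F4 and 1A2 exceeded 2 counting errors only at the pair and its nearest ring among the rings up to 8 bins.

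**Figure D3:**
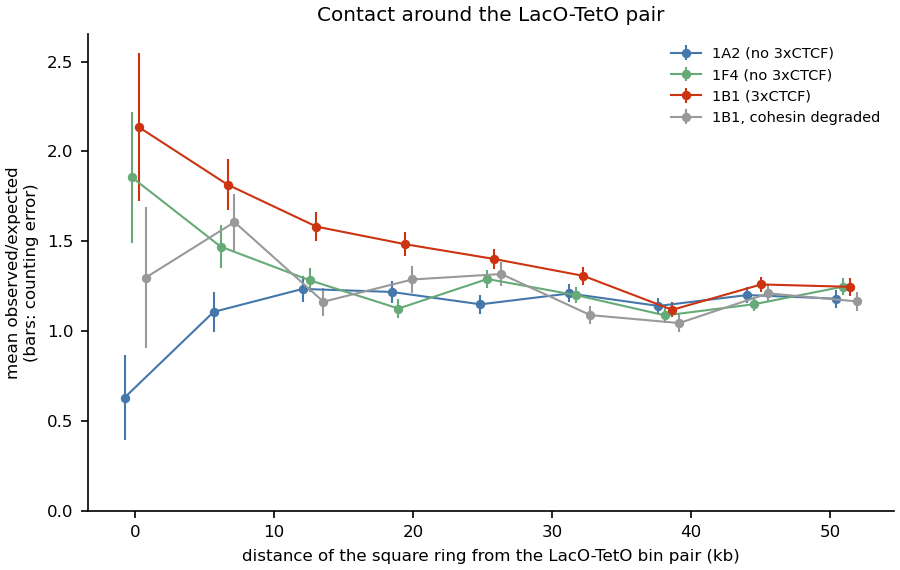
Mean observed/expected (y axis) in square rings at increasing distance in kb from the LacO-TetO bin pair (x axis), with points for each untreated line and for cohesin-degraded 1B1, shifted slightly sideways, and bars of 1 counting error. The lines without 3xCTCF part at 0 and 6.4 kb and meet at 12.8 kb, where 1B1 lies above both at 1.58.

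By direction, contact outside both arrays was higher in 1B1 than in both lines. In the quadrant upstream of LacO and downstream of TetO, at 2 to 6 bins, the level was 1.61 ± 0.07 in 1B1, against 1.248 ± 0.06 in 1A2 and 1.27 ± 0.06 in 1F4, and 1.33 ± 0.07 after treatment. The ratios were 0.37 ± 0.09 and 0.35 ± 0.09, with 0.02 between 1F4 and 1A2. In the quadrant between the arrays they were 0.36 ± 0.10 and 0.15 ± 0.09. In the quadrant shifted upstream they were -0.11 and 0.12, and in that shifted downstream 0.02 and -0.19. Only in the outer quadrant did 1B1 exceed both lines by over 2 counting errors, and the inner quadrant had the same ratio to 1A2. The difference between these quadrants was not tested. For rings and quadrants no spread outside the domain was taken, so their ratios stand beside counting errors only.

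TetO with the upstream boundary was the contact of an array that was 1.5-fold higher in 1B1 than in both lines. Its level was 2.58 ± 0.23 in 1B1 (152 reads), against 1.65 ± 0.19 in 1A2 (87 reads) and 1.403 ± 0.14 in 1F4 (108 reads), and 1.965 ± 0.25 after treatment (70 reads). The ratios were 0.64 ± 0.21 and 0.88 ± 0.20, against an SD of 0.34 over windows outside, which reached 0.97 and 1.39, while 1F4 over 1A2 was -0.24. In windows of 5 by 5 bins the ratio to 1A2 was 0.54, short of 1.5-fold. TetO with Tars, whose start site lies in the bin next to that boundary, shares reads with this window and had 2.13 in 1B1, 1.57 in 1A2 and 1.21 in 1F4, with ratios of 0.44 ± 0.21 and 0.82 ± 0.20. In windows of 5 by 5 bins these were 0.62 and 0.70, both past 1.5-fold.

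LacO showed no such contact on either side. With the upstream boundary its ratios were -0.15 ± 0.18 and -0.25 ± 0.17, and with the downstream boundary 0.16 ± 0.18 and 0.09 ± 0.16. TetO with the downstream boundary had 0.41 ± 0.21 and 0.19 ± 0.20. All 6 ratios were within 2 counting errors.

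The contact between the boundaries was 1.5-fold lower in 1B1 than in both lines. It was 6.58 ± 0.41 in 1B1 (267 reads), against 10.1 ± 0.52 in 1A2 (378 reads) and 10.8 ± 0.50 in 1F4 (476 reads), and 2.95 ± 0.36 after treatment (70 reads). The ratios were -0.62 ± 0.12 and -0.72 ± 0.11, and 1F4 over 1A2 was 0.10 ± 0.10. The counting errors were small beside them, but windows at this separation outside the domain varied with an SD of 0.48. In windows of 5 by 5 bins the ratio to 1A2 was -0.54, short of 1.5-fold. The boundary pair was not repeated with the expected value from the domain, on which the size of the block across both arrays depended. The boundary pair was the strongest of the contacts named here in every library, and its level in 1B1 lay between those without 3xCTCF and that without cohesin.

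The other start sites gave ratios that were short of 1.5-fold against at least 1 line. LacO with Npr3 was 2.13 in 1B1, 2.24 in 1A2, 3.22 in 1F4 and 1.13 after treatment, so that it differed from 1F4 (-0.60 ± 0.14) and not from 1A2 (-0.08 ± 0.16). TetO with Npr3 was 1.63 in 1B1, 1.958 in 1A2 and 2.103 in 1F4, with ratios of -0.27 ± 0.17 and -0.37 ± 0.16. In windows of 5 by 5 bins these were -0.34 ± 0.16 and -0.30 ± 0.15, both over 2 counting errors. The ratios for Sub1 were 0.11 and 0.23 with LacO and -0.29 and -0.31 with TetO, none clearly larger than its counting error of 0.29 to 0.30. For Zfr, with 25 to 47 reads per window, they had opposite signs for both arrays. In all, of these 13 contacts besides the array pair, 1 was 1.5-fold higher and 1 lower in 1B1, 9 others had the same direction against both lines, and 2 had opposite directions. By the same rule 1.53% of all windows of the domain were higher and 2.15% lower. Both ratios of a contact share its 1B1 value and some of these windows overlap, so nothing is read from the counts.

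**Figure D4:**
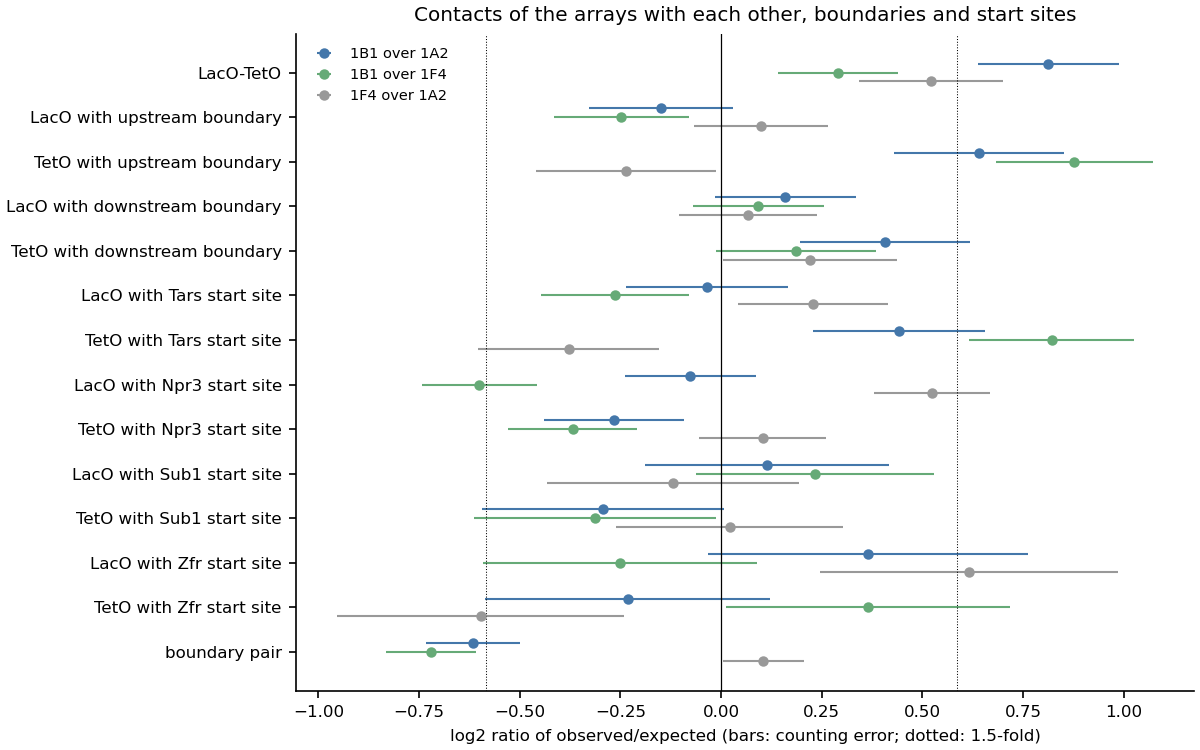
Log2 ratio of observed/expected (x axis) for the LacO-TetO pair, each array with each boundary and each protein-coding start site, and the boundary pair, with points for 1B1 over 1A2, 1B1 over 1F4 and 1F4 over 1A2, bars of 1 counting error, and dotted lines at 1.5-fold. TetO with the upstream boundary lies beyond the upper line at 0.64 and 0.88, the LacO-TetO pair beyond it against 1A2 only, at 0.81, and the boundary pair beyond the lower line at -0.62 and -0.72.

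Insulation, the log2 mean contact across a bin in squares of 20 by 20 bins, relative to the region, read the same maps by another measure. A lower value means fewer contacts across the bin. At TetO it was -0.09 in 1B1, against 0.06 in 1A2 and 0.13 in 1F4, and -0.13 after treatment. The differences of -0.14 ± 0.03 and -0.21 ± 0.03 compared with an SD of 0.04 and 0.05 over 279 bins outside the domain, where the lowest were -0.09 and -0.12. With squares of 20 bins TetO thus stood lower in 1B1 than in either line by more than at any bin outside. With squares of 10 bins the differences were -0.15 ± 0.04 and -0.13 ± 0.04, and with squares of 30 bins -0.11 ± 0.02 and -0.19 ± 0.02.

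At LacO insulation was -0.13 in 1B1, against 0.00 in 1A2 and -0.12 in 1F4, and 0.01 after treatment. 1B1 differed from 1A2 by -0.13 ± 0.03 and from 1F4 by -0.01 ± 0.03. The lines without 3xCTCF differed by -0.12 ± 0.03 from each other. LacO thus did not separate 1B1 from both at this size of square. With squares of 10 bins the differences were -0.20 ± 0.06 and -0.10 ± 0.06, and with squares of 30 bins -0.03 ± 0.02 and 0.08 ± 0.02, so that the value at LacO depended on the square.

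At the upstream boundary insulation was -0.96 in 1B1, against -1.102 in 1A2 and -1.09 in 1F4, and -0.28 after treatment. The differences of 0.14 ± 0.03 from each line left the boundary shallower in 1B1, and 1F4 was 0.01 from 1A2. Outside the domain differences reached 0.13 and 0.16. At the downstream boundary the values were -0.76 in 1B1, -0.85 in 1A2, -0.96 in 1F4 and -0.52 after treatment, with differences of 0.09 ± 0.06 and 0.20 ± 0.06. As the boundary bins were chosen for their depth in 1A2 and 1F4, these differences are a description.

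By a difference of over 0.1 from both lines, 10 of 136 bins were lower in 1B1 and 10 higher, against 0 of 279 (0%) outside the domain in each direction. The 10 lower bins formed 1 unbroken run, chr15:11635201-11699200, from 140.8 to 198.4 kb downstream of LacO, which begins beside TetO. The 10 higher bins lay at chr15:11328001-11347200, around the upstream boundary and the start of Tars, at chr15:11539201-11564800 between the arrays, and at chr15:11814401-11820800 and chr15:11827201-11840000, in Npr3 and at its start. The largest rise was at chr15:11545601-11552000, with 0.15 and 0.14, and that bin is thinly covered. Neighbouring bins share most of their square and are not separate measurements.

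**Figure D5:**
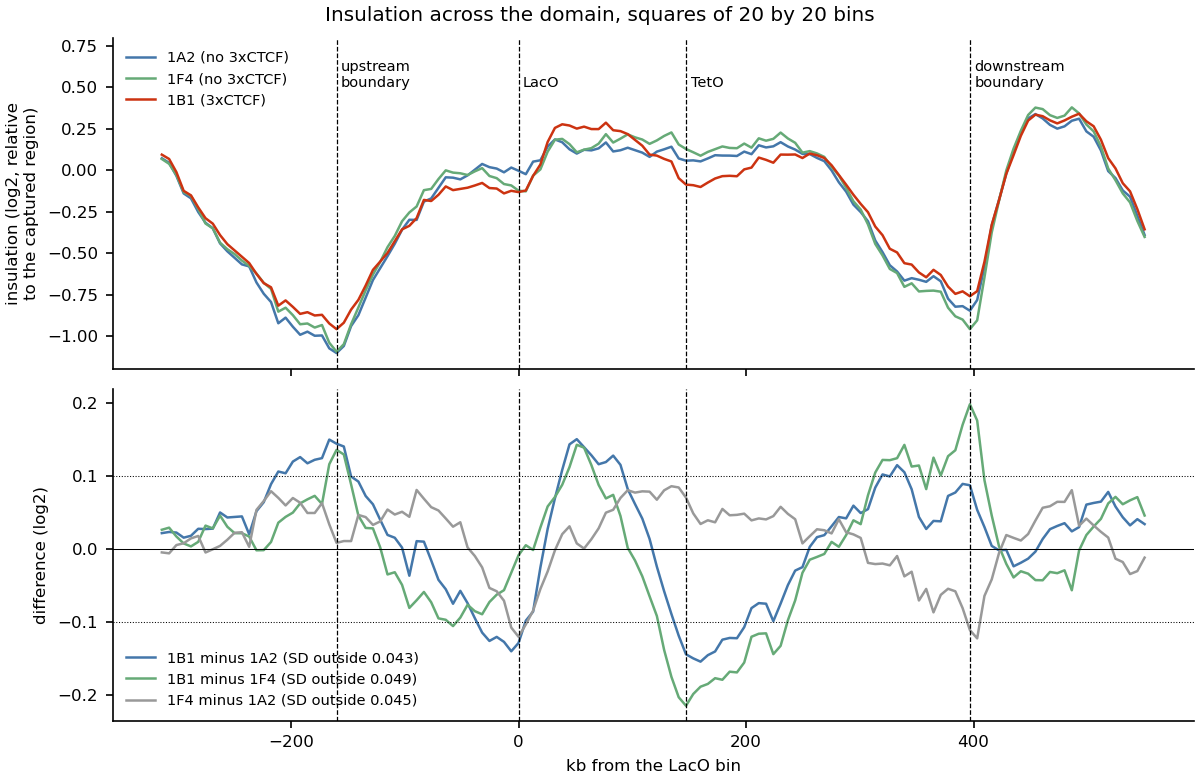
Insulation of 1A2, 1F4 and 1B1 (upper panel, log2) and its differences between lines (lower panel, log2, dotted lines at 0.1 and -0.1) by distance in kb from the LacO bin, with dashed lines at the boundaries and arrays. Both differences of 1B1 fall below -0.1 in the run downstream of TetO and rise above 0.1 at the upstream boundary, where the difference between 1F4 and 1A2 stays near 0.

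In cohesin-degraded 1B1 the gained and lost windows were read in a library that did not choose them. It shares its clone with 1B1, and the ratio of treated to untreated 1B1 shares the 1B1 value that chose the windows, so the levels stand side by side and no direction is read from them. The median log2 ratio of treated to untreated 1B1 was -0.86 over the 128 gained windows and -0.08 over the 180 lost ones, against -0.04 over all 8383 windows of the domain. Windows chosen in the same way outside the domain had -0.22 for gained and 0.64 for lost. Over the 6 named windows without thin bins it was -0.56 for gained and 0.24 for lost, so that the named lost windows had the other sign from the full set. The gained window beside the arrays was nearer to the lines without 3xCTCF after treatment (1.18) than before (1.79). Some gained windows kept their level, as between chr15:11219201-11225600 and chr15:11520001-11526400, with 0.654 in 1B1, 0.628 after treatment, 0.334 in 1A2 and 0.323 in 1F4.

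Among the larger features, some stood further apart between treated and untreated 1B1 than between the lines. The block across both arrays went from 2.09 to 1.497 and the boundary pair from 6.58 to 2.95, while contacts across the upstream boundary went from 0.551 to 0.886. Others stood closer. The block between the arrays and the stretch downstream of TetO went from 1.15 to 1.06, a log2 ratio of -0.12 ± 0.03, TetO insulation from -0.09 to -0.13, and TetO with the upstream boundary from 2.58 to 1.965.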

How the data were processed

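Contact maps of 4 tiled Capture-C libraries (1A2, 1F4, 1B1 and cohesin-degraded 1B1, 1 library each) were used. The authors built them with HiC-Pro 2.11.4 on mm9, in bins of 6.4 kb, and balanced them with ICE, so the deposited values are a contact signal per bin pair that does not carry sequencing depth. Balancing multiplies or divides weak bins by large factors, which adds noise where reads are few.

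Reads were recovered by solving 1 factor per bin, and all values (100%) lay less than 0.05 reads from a whole number. The region on chromosome 15 then held 1222239 to 1558596 read pairs per library, and 1 of its 456 bins was not balanced. Counting errors came from these reads. Observed/expected, windows of 3 by 3 bins with at least 30 reads over 3 libraries, blocks, rings, quadrants, insulation and a fold of 1.5 in the same direction against 1A2 and 1F4 were computed in Python 3.11.15 with numpy 2.4.6, pandas 2.3.3, SciPy 1.17.1 and matplotlib 3.10.9, and the scripts were tested on simulated data. Groups came from the sample labels. With 1 library per group no test across replicates was run. The spread of ratios was taken from the region outside the domain, but not for rings and quadrants, which have counting errors only.

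Named windows were the array pair, each array with each boundary and each protein-coding start site at least 5 bins away, the boundary pair, and the 6 most gained and 6 most lost windows with at least 100 reads. The domain, the segments and these lists were chosen with earlier results of these data known. Alternatives covered window size, fold threshold, counting error, balancing, expected value, minimum of reads, separation, array segment and insulation square, and leaving out thin bins was added after the data were seen. Sites and motif matches were read from the mm9 (NCBIM37) sequence. Other captured regions were not used here.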

Additional observations from a re-analysis of the deposited data

How the results depend on the processing

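The counts of windows moved with most settings. Against 128 gained and 180 lost, windows of 5 by 5 bins gave 13 and 31, a lower fold threshold gave 553 and 761, a fold of 2 gave 15 and 24, and over 2 counting errors 51 and 85. Recovered reads without balancing gave 67 and 98, the expected value from the domain 215 and 92, and single bin pairs 311 lost. Leaving out thin bins, an alternative chosen after seeing the data, gave 72 and 84. The single LacO-TetO bin pair gave a log2 ratio of 1.76 ± 0.61 against 1A2, on 7 and 27 reads. Against 1F4 it gave 0.20 ± 0.40, on 26 and 27 reads. The block across both arrays was -0.072 against 1A2 and -0.10 against 1F4 with the expected value from the domain. With that setting the upstream flank with the stretch from TetO to the downstream boundary reversed to 0.10 against each line. Insulation squares of 10 bins gave 0.23 at the upstream boundary and -0.13 at TetO, both against 1F4. LacO insulation against 1A2 ran from -0.20 to -0.03 over squares of 10 to 30 bins. Counting each result once per alternative, 60 values of the main results stayed within their spread and 20 moved, and of the other results 329 stayed, 13 moved and 2 reversed. Of 404 ratios under an alternative, 370 kept the sign of the reported value and 34 did not. The cause of these moves was not tested. Depth limits single windows, with a median of 281 reads over the 3 untreated libraries in the domain and 142 outside. No paired analysis was possible because each group had 1 library.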
